A study of Rattus norvegicus with 8 samples.

Results

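Genes for protein folding in the endoplasmic reticulum (ER), for the ER stress response and for export in COPII vesicles were followed through the growth plate of the rat femur, the cartilage layer in which long bones lengthen. The group was a list of 46 genes, each read from the probe set of highest mean that the platform annotation maps to that gene alone. Of these, 44 were measured among 14217 genes in all, and no filter on low values was applied. Ern1, a stress sensor, and Sec23a, an inner COPII coat subunit, had no such probe set.

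RNA came from 4 zones, which the labels name perichondral, reserve, proliferative and hypertrophic. Each zone was hybridised once from animals of 42 days and once from animals of 46 days, so every zone had 2 arrays and there were 8 arrays in all. Each array received a pool of RNA from 3 rats, which the labels give no strain, sex or treatment, and RNA was amplified before labelling. The p-values between zones therefore rest on differences between pools of unlike age within a zone. Those between ages rest on how the age difference varied between zones. Both also borrow spread from the other probe sets. Neither how the zones were separated nor whether pools shared animals is given in the sources used here. Levels are log2(intensity + 16) after quantile normalization, and differences are on that scale too. The added 16 makes a dim gene's difference smaller, but dim genes can also swing widely between arrays of a zone. Hyou1, for one, read 4.74 and 7.43 in proliferative arrays. Levels are set side by side only within a gene.

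Chondrocytes secrete large amounts of collagen and proteoglycan, all of which pass through the ER. New chains enter through the Sec61 translocon, fold with BiP, lectin chaperones and disulphide isomerases, and leave in vesicles coated with Sec23, Sec24, Sec13 and Sec31 after the GTPase Sar1 starts the coat. When unfolded chains collect, the sensors Ire1 (Ern1), Perk (Eif2ak3) and Atf6 raise chaperones, degradation factors and export genes, in part through Xbp1 and Atf4. In cartilage, the ER-bound factor Creb3l2 is known to turn on Sec23a.

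The promoters are shown because many of these genes are known targets of Atf6 and Xbp1 and can carry one short control sequence. RefSeq windows of 300 bases (250 before and 50 after the annotated start, build GRCr8) were found for 36 of the 46 genes. The ER stress element was searched on both strands as CCAAT, any 9 bases, CCACG. It stood in the windows of 7 of the 36 genes (19.4%), namely Hspa5, Hsp90b1, Dnajc3, Creld2, Calr, Canx and Xbp1, against 21 of 27457 genes (0.0765%) in the whole table. The whole Hspa5 window (chr3:38452766-38453065, plus strand) and shorter stretches around single elements, all read 5′ to 3′ along the gene, have the element's fixed letters in capitals.
Hspa5 window: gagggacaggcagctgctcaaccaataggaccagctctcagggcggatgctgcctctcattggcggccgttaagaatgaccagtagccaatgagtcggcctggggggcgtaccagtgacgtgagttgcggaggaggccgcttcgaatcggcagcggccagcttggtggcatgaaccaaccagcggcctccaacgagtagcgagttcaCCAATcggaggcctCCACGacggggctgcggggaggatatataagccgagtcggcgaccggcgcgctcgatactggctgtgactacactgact
Hsp90b1: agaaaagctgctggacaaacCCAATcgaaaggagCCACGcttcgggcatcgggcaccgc
Dnajc3: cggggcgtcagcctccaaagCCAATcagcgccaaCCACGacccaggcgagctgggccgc
Canx: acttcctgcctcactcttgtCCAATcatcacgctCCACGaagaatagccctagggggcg
Xbp1: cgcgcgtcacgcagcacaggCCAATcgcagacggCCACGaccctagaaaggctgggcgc

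The Hspa5 element began 43 bases before the start, the Hsp90b1 element shown 176 (chr7:23012431-23012489, minus strand), the Dnajc3 element 133 (chr15:102432514-102432572, plus strand), the Canx element 230 (chr10:35158049-35158107, minus strand) and the Xbp1 element 65 (chr14:84604538-84604596, plus strand). A second type, ER stress element II (ATTGG, any 1 base, CCACG), stood in 3 of the 36 windows (8.33%), those of Hyou1, Dnajb11 and Herpud1, against 17 of 27457 (0.0619%). The core of the unfolded protein response element, TGACGTGG, stood in Hyou1, Sec23a and Kdelr3, 3 of 36 (8.33%) against 187 of 27457 (0.681%), and in Hyou1 it overlapped an element II. Herpud1 is shown for element II (chr19:10614801-10614851, minus strand), and Kdelr3 for the response element core, which lies on its opposite strand and so reads as the reverse complement (chr7:112959511-112959558, plus strand). Capitals again mark the fixed letters.
Herpud1: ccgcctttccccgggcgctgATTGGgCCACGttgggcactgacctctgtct
Kdelr3: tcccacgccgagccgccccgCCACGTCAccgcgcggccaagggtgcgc

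The cyclic AMP response element, TGACGTCA, was in 0 of the 36 windows against 549 of 27457 (2%), which says only that these letters are not in the windows. The amino acid response core, TTGCATCA, was in the Herpud1 window alone among the members, 1 of 36 (2.78%), against 227 of 27457 (0.827%). The 10 measured genes with an ER stress element of either kind can be set beside the 25 with a window and neither element, as a description with no test. Their median differences were 0.72 and 0.60 between reserve and hypertrophic arrays, 0.88 and 0.46 between reserve and proliferative arrays and 0.47 and 0.10 between proliferative and hypertrophic arrays. Between perichondral and hypertrophic arrays the medians were 0.60 and 0.67, with 10 of 10 and 17 of 25 genes higher in perichondral means. Between the ages they were -0.46 and -0.13, with 9 of 10 and 17 of 25 genes lower at 46 days.

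**Figure D1:**
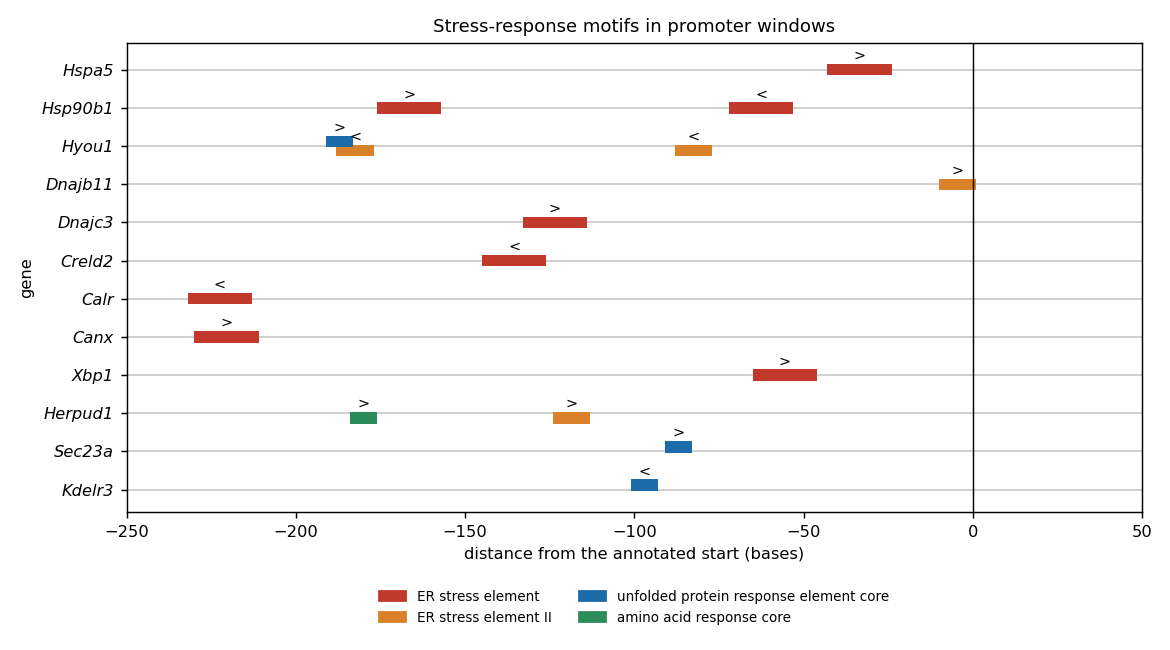
Positions of the motifs in the promoter windows of 12 listed genes, by distance from the annotated start in bases. Coloured bars are motif matches, and > or < marks a match on the same or the opposite strand as the gene; 7 genes carry the ER stress element and 3 carry ER stress element II.

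Across zones, these genes tended to read lowest in the hypertrophic zone and highest in the reserve zone, but no single gene passed the test. The lowest zone mean was the hypertrophic one in 27 of 44 genes, against 27.2% of all genes and 34.3% of the 2719 genes brighter than the median member. The highest zone mean was the reserve one in 22 of 44, against 29% of all genes and 32.2% of the genes brighter than the median member. It was the hypertrophic one in 3 (Pdia6, Sec61a1 and Lman1), against 25.3% of all genes. The reserve count fell to 16 without the 46-day perichondral array (24.4% of all genes). It was 17 without the 46-day proliferative array (26.3%) or the 46-day hypertrophic array (25.2%). The 46-day hypertrophic array weighed on the count of lowest hypertrophic means. Without it, 17 genes were lowest in the hypertrophic zone (29% of all genes), and 24 to 26 were without any other single array. That array held the lowest of the 8 values for 13 of the 44 genes, against 16% of all genes and 23% of the genes brighter than the median member. Whether lower values come from fewer cells of a type or from less RNA per cell cannot be told apart in these bulk samples.

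In limma's moderated test with Benjamini-Hochberg adjustment, 0 of the 44 genes had an adjusted p below 0.05 in any of the 6 pairs of zones, in the test over all 4 zones or between the ages. Few genes of any kind passed: 0% of genes between perichondral and reserve, 0% between perichondral and proliferative, 0.0492% between perichondral and hypertrophic, 0.0352% between reserve and proliferative, 0.0422% between reserve and hypertrophic and 0.0141% between proliferative and hypertrophic arrays. Over the 4 zones 0.0703% passed, and between the ages 0% did.

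At an unadjusted p below 0.05, perichondral against reserve gave 0 members (3.92% of all genes), and perichondral against proliferative gave 2, Sec63 and Sec31a (5.23%). Perichondral against hypertrophic gave 5, Hspa5, Edem1, Sec63, Sar1a and Kdelr3 (6.85%), and reserve against proliferative gave 7, Hspa5, Hsp90b1, Canx, Atf4, Edem1, Sec31a and Kdelr3 (8.51%). Reserve against hypertrophic gave 6, Hspa5, Hsp90b1, Edem1, Sec23b, Sar1a and Kdelr3 (9.06%). Proliferative against hypertrophic gave 3, Sec31a, Sec23b and Sar1a (5.73%). The test over the 4 zones gave 6, Hspa5, Hsp90b1, Edem1, Sec31a, Sar1a and Kdelr3 (7.16%). Member shares ran from 0% to 15.9%, so between reserve and proliferative arrays they stood at 15.9% against 8.51% of all genes, the widest gap of the 7 zone tests.

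Counts of genes whose arrays did not overlap gave the same picture by direction. Both perichondral arrays lay above both hypertrophic ones in 19 of 44 genes (18.3% of all genes) and below in 5 (17.6%). Both reserve arrays lay above both hypertrophic ones in 19 (20.6%) and below in 5 (18.8%), and above both proliferative ones in 14 (21.3%) and below in 5 (19.1%). Both proliferative arrays lay above both hypertrophic ones in 11 (15.5%) and below in 4 (15.8%). Perichondral arrays lay above both proliferative ones in 11 (17.4%) and below in 7 (17.1%), and above both reserve ones in 9 (16.7%) and below in 10 (18.4%), which is near the background. Among the genes brighter than the median member, 26.3% had both reserve arrays above both hypertrophic ones and 24.2% had both perichondral arrays above them.

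The median member difference was 0.58 between reserve and hypertrophic arrays (0.07 over all genes) and 0.66 between perichondral and hypertrophic arrays (0.02 over all genes). It was 0.40 between reserve and proliferative (0.06), 0.19 between proliferative and hypertrophic (0.00), 0.17 between perichondral and proliferative (0.02) and -0.25 between perichondral and reserve arrays (-0.05). The last of these turned to 0.18 without the 46-day perichondral array. Without the 46-day proliferative array the reserve and proliferative median was 0.08, and the perichondral and proliferative median turned to -0.08. The median member difference between reserve and hypertrophic arrays was 0.34 without the 46-day hypertrophic array. When arrays were centred on their medians instead, the median of all genes itself shifted, by 0.21 between reserve and hypertrophic and by 0.23 between reserve and proliferative arrays. The member medians were then 0.85 and 0.53, or 0.64 and 0.30 above those shifts.

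**Figure D2:**
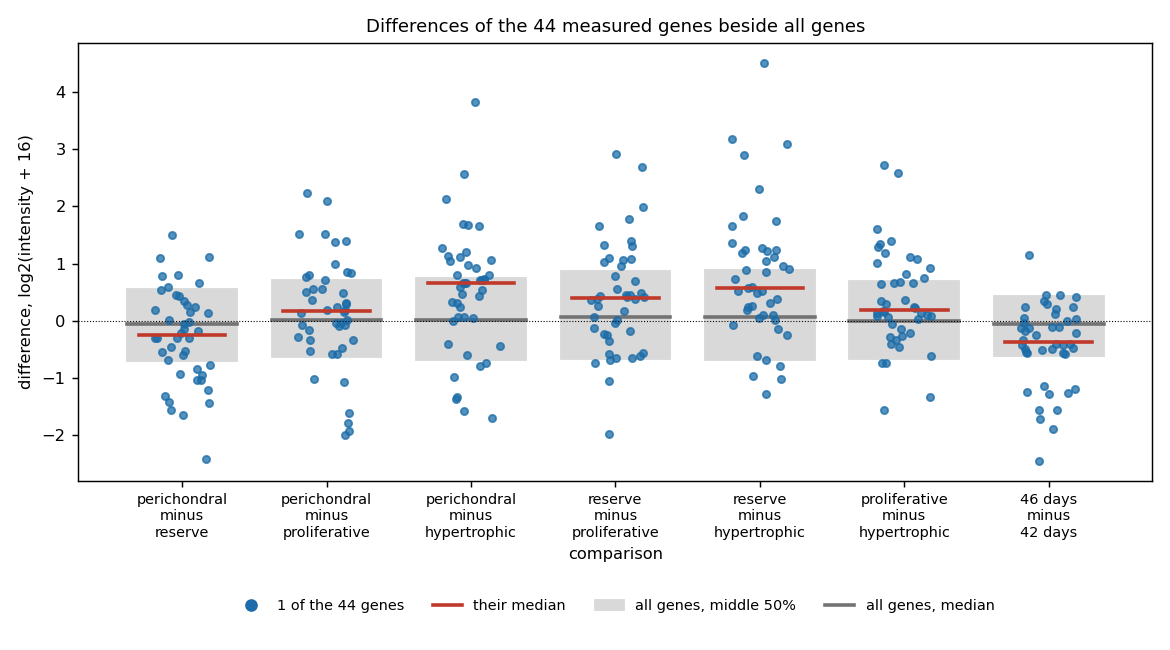
Differences of the 44 measured genes in the 6 pairs of zones and between the ages, on the log2(intensity + 16) scale. Points are genes, red lines their medians, grey boxes the middle 50% of all genes and grey lines their medians; the red line lies highest above the grey one in the 2 comparisons of perichondral or reserve with hypertrophic arrays.

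In the BiP system, all 9 genes had a higher perichondral than hypertrophic mean, with a median difference of 0.81 (7221 of 14217 genes in all). A higher reserve than hypertrophic mean was seen in 8 of 9 (median 1.11), against 7456 of 14217 genes in all. The 46-day hypertrophic array weighed on these counts. The 42-day hypertrophic array alone read above the reserve mean for Hyou1 (8.15 against 7.40), Dnajc3 (11.81 against 11.36), Sdf2l1 (9.18 against 9.03) and Manf (9.89 against 9.59), and below it for the rest. None passed the test. Hspa5, which encodes BiP, the central Hsp70 chaperone of the ER, read 11.23 and 10.65 at 42 and 46 days in perichondral, 11.28 and 11.80 in reserve, 10.18 and 8.91 in proliferative, and 10.22 and 6.52 in hypertrophic arrays. Both reserve and both perichondral arrays stood above all 4 others, and the 46-day hypertrophic array stood far below the rest. Reserve exceeded hypertrophic arrays by 3.17 (SE 0.89, 9.01-fold, 95% interval 1.28 to 5.06, adjusted p = 0.407). With the 42-day hypertrophic array left out, so that the zone rested on the 46-day array alone, the difference was 5.02 and the adjusted p 0.0101, and over all alternatives that p ran from 0.0101 to 0.999. Without the 46-day hypertrophic array the difference was 1.32.

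Hsp90b1 encodes Grp94, the Hsp90 of the ER. It read 9.84 and 9.06 in perichondral, 10.77 and 10.54 in reserve, 9.16 and 9.35 in proliferative, and 8.58 and 8.10 in hypertrophic arrays at 42 and 46 days. Both reserve arrays stood above all others and both hypertrophic arrays below all others, while perichondral and proliferative arrays overlapped. The gap between reserve and hypertrophic was 2.31 (SE 0.66, 4.96-fold, adjusted p = 0.408). Taking perichondral, reserve, proliferative and hypertrophic zones in turn, the SD between a zone's arrays was 0.55, 0.16, 0.13 and 0.34 for Hsp90b1 and 0.40, 0.37, 0.90 and 2.62 for Hspa5. It was smaller for Hsp90b1 in 3 of the 4 zones.

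The co-chaperones of BiP varied less by zone. Dnajb9 (zone means 10.47 to 10.84) was nearly flat. Dnajb11 ran from 10.56 in hypertrophic to 11.67 in reserve means, with both reserve arrays above both hypertrophic ones. Hyou1, the exchange factor Grp170, ran from 6.09 in proliferative to 8.17 in perichondral means, and its 2 proliferative arrays differed by 2.69. Sdf2l1 and Manf, a secreted stress protein, had their lowest values in the 46-day hypertrophic array, 5.20 and 5.98, and their 42-day hypertrophic values, 9.18 and 9.89, were among the highest. For these 2 genes the low hypertrophic mean thus rested on 1 array.

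Lectin chaperones and oxidative folding enzymes showed little order by zone, with 3 of 6 higher and 3 lower in reserve than in hypertrophic means and a median difference of 0.05. Canx, the membrane-bound lectin chaperone calnexin, read 12.03 and 10.50 in perichondral, 12.19 and 12.01 in reserve, 11.08 and 9.83 in proliferative, and 11.98 and 10.41 in hypertrophic arrays. Both reserve arrays were above both proliferative ones, by 1.65 on average (SE 0.68, 3.13-fold, adjusted p = 0.624). That difference was 1.02 without the 46-day proliferative array. The 2 other Canx probe sets differed by 0.10 each between the same zones. In the zones other than reserve the 42-day array exceeded the 46-day array by more than 1.

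Ero1a, the oxidase that recharges disulphide isomerases, read 8.38 and 5.47 in perichondral, 9.10 and 7.86 in reserve, 9.41 and 8.02 in proliferative, and 8.34 and 8.89 in hypertrophic arrays. A single low array, the 46-day perichondral one, set its range, and the zones overlapped. Its widest difference was perichondral minus proliferative, -1.79 (SE 1.08, adjusted p = 0.963), which was -0.33 without the 46-day perichondral array. The second Ero1a probe set, of like brightness, ran the other way, with its highest mean in perichondral (8.55) and its lowest in hypertrophic arrays (7.29). Calr, Pdia3 and Pdia4 had zone means of 11.20 to 11.64, 10.56 to 11.45 and 7.72 to 9.22. Pdia6 went against the group, with both hypertrophic arrays (10.40 and 9.87) above all other arrays and a hypertrophic mean of 10.14.

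Among sensors and transcription factors, 6 of 7 had a higher reserve than hypertrophic mean, with a median difference of 0.26. Atf4, the factor translated when Perk or a related kinase is active, read 8.60 and 8.64 in perichondral, 10.04 and 9.81 in reserve, 5.66 and 8.81 in proliferative, and 9.63 and 7.49 in hypertrophic arrays. The reserve arrays were the highest, and the 42-day proliferative array was the lowest by a wide margin. Reserve exceeded proliferative arrays by 2.69 (SE 1.03, 6.44-fold, adjusted p = 0.593), and by 1.11 without that proliferative array. Eif2ak3, which encodes Perk, read 9.30 and 9.29 in perichondral, 9.41 and 8.32 in reserve, 7.85 and 7.72 in proliferative, and 8.11 and 7.18 in hypertrophic arrays. Both perichondral and both reserve arrays stood above all proliferative and hypertrophic ones. The perichondral and hypertrophic means differed by 1.65 (SE 0.87, adjusted p = 0.829).

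The 2 Creb3-family factors differed in pattern from each other and from the chaperones. Creb3l2, the cartilage factor that acts on Sec23a, read 7.68 and 7.17 in perichondral, 8.95 and 8.73 in reserve, 8.25 and 8.65 in proliferative, and 8.65 and 8.93 in hypertrophic arrays. Both perichondral arrays lay below all 6 others, and reserve and hypertrophic arrays overlapped. The perichondral minus reserve difference was -1.42 (SE 0.85, adjusted p = 1.0). Creb3l1, its relative known from bone, read 9.28 and 8.69, 10.81 and 9.23, 8.43 and 8.96, and 9.43 and 9.41 in the same order of zones. Both hypertrophic arrays were above both perichondral and both proliferative ones for Creb3l1, and 1 reserve array was the highest.

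Xbp1 and Atf6, which act directly on ER stress elements, spanned less than 1 across zone means (9.37 to 10.13 and 9.77 to 10.57). Ddit3, the stress factor Chop, ran from 7.71 in reserve to 8.41 in proliferative means. Its 2 reserve arrays read 7.70 and 7.72 and lay below all other arrays, opposite to Hspa5 and Hsp90b1. Splicing of Xbp1, cleavage of Atf6 and phosphorylation of Perk or eIF2alpha are not read by these probe sets, so the activity of the sensors was not measured.

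Degradation genes were few. Edem1, a lectin that sends misfolded glycoproteins for disposal, read 10.33 and 10.25 in perichondral, 10.86 and 11.26 in reserve, 9.73 and 8.84 in proliferative, and 8.82 and 7.51 in hypertrophic arrays. The order reserve, perichondral, proliferative, hypertrophic held without overlap between neighbouring zones, though the nearest proliferative and hypertrophic arrays read 8.84 and 8.82. Reserve exceeded hypertrophic arrays by 2.90 (SE 0.67, 7.47-fold, 95% interval 1.49 to 4.31), with an adjusted p of 0.248, the lowest of any member between zones, and an unadjusted p of 0.000456. Without the 42-day hypertrophic array the difference was 3.55 with an adjusted p of 0.0403, and over all alternatives that p ran from 0.0403 to 0.999. The 2 other Edem1 probe sets did not share the direction: they differed by -0.73 and -0.45 between reserve and hypertrophic means.

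Herpud1, an ER membrane scaffold of the degradation machinery and a classic stress target, read 9.51 and 7.73, 9.30 and 8.35, 8.99 and 8.92, and 8.05 and 8.57 in perichondral, reserve, proliferative and hypertrophic arrays. The zone means spanned 0.65 and the arrays overlapped. Sel1l, the adaptor of the Hrd1 ubiquitin ligase, ran from 6.66 in perichondral to 8.10 in reserve means.

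**Figure D3:**
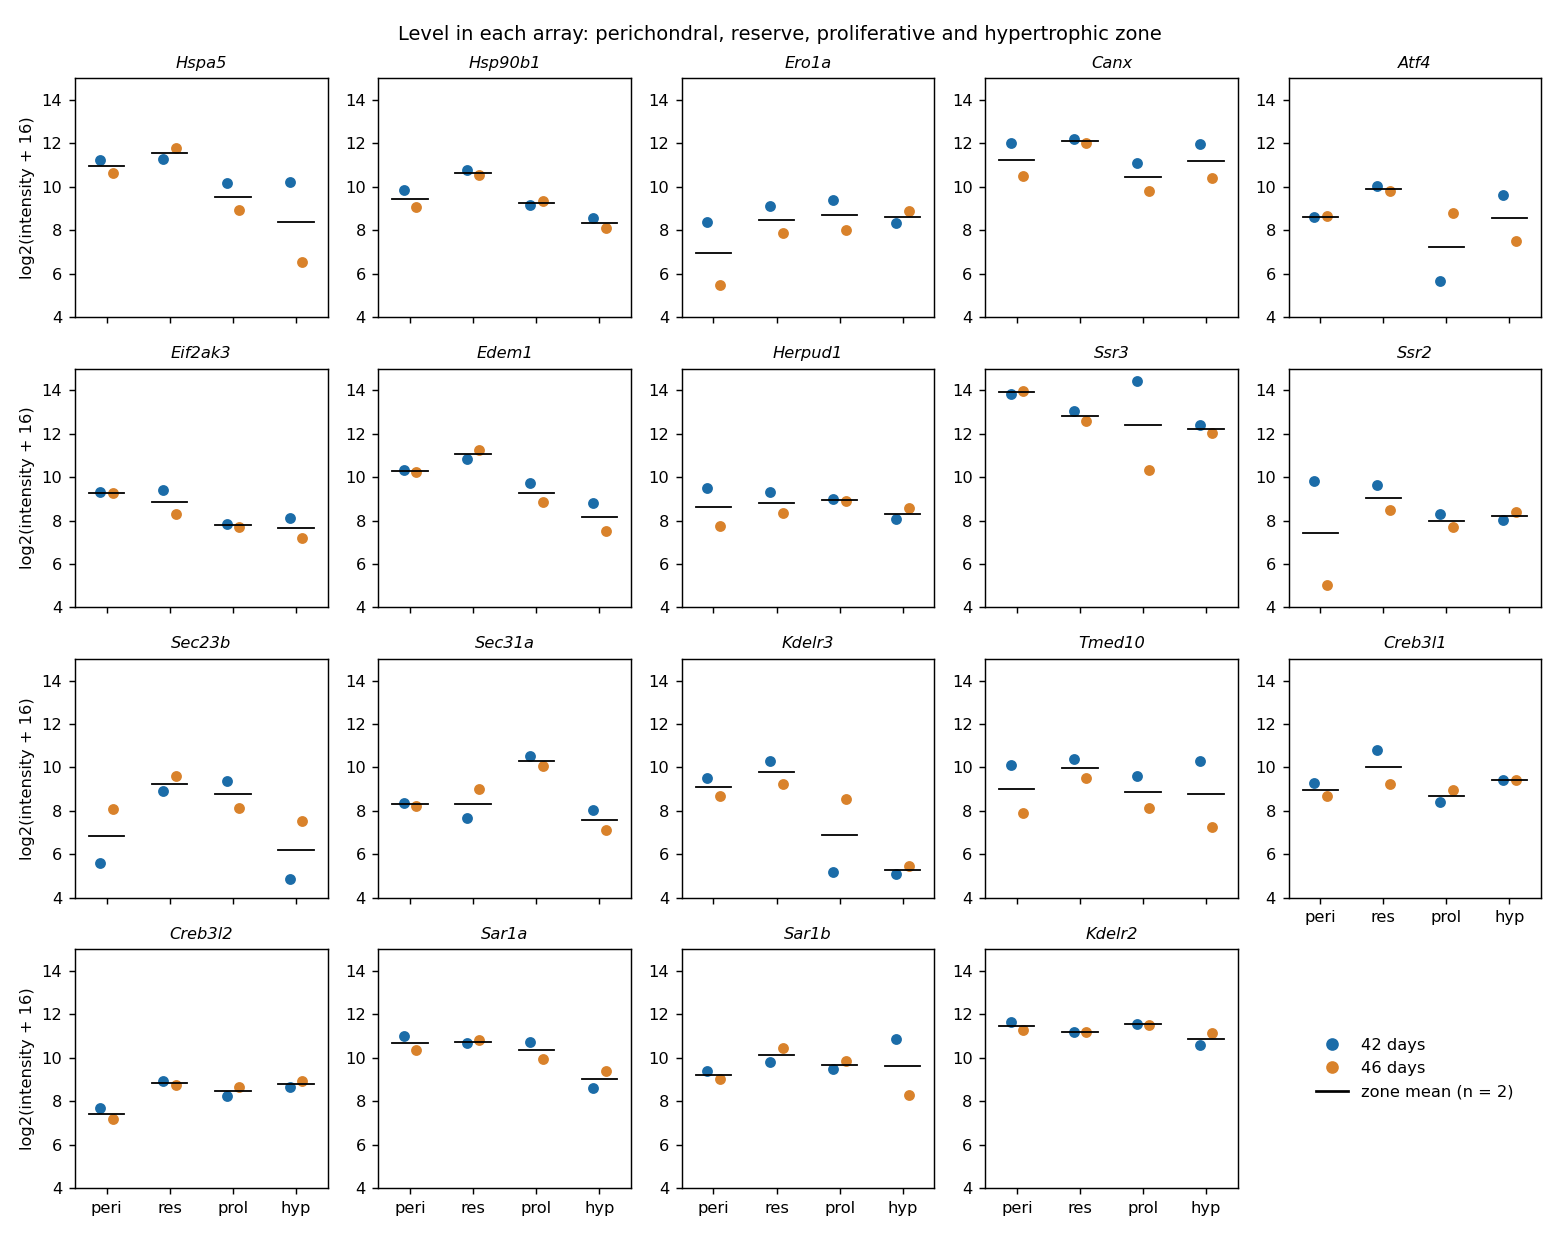
Levels of 19 genes as log2(intensity + 16) in each array, by zone (peri, perichondral; res, reserve; prol, proliferative; hyp, hypertrophic). Blue points are 42-day arrays, orange points 46-day arrays and bars zone means of 2 arrays; Edem1, Hsp90b1 and Kdelr3 have both hypertrophic points below both reserve points.

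Translocon genes split. Of 8, 6 had a higher reserve than hypertrophic mean (median difference 0.47), and Sec61a1 and Sec63 ran the other way. Ssr3, a subunit of the translocon-associated TRAP complex, read 13.85 and 13.97 in perichondral, 13.04 and 12.58 in reserve, 14.42 and 10.35 in proliferative, and 12.42 and 12.06 in hypertrophic arrays. Both perichondral arrays stood above both reserve ones, and both reserve ones above both hypertrophic ones, while the proliferative arrays held both the highest and the lowest of the 8 values. Perichondral exceeded hypertrophic means by 1.67 (SE 0.90, 3.18-fold, adjusted p = 0.842), while its 2 dimmer probe sets differed by 0.17 and -1.48 there. Ssr2, another TRAP subunit, read 9.82 and 5.02, 9.63 and 8.50, 8.30 and 7.69, and 8.04 and 8.38 in the same order of zones. Its perichondral minus reserve difference of -1.64 (SE 1.24, adjusted p = 1.0) came from the 46-day perichondral array, without which it was 0.76.

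Sec61a1, the channel subunit, had its highest mean in the hypertrophic zone (10.10, with arrays at 10.08 and 10.11, above all 6 others) and its lowest in reserve (9.13). Its next probe set ran the other way, with the hypertrophic mean 0.71 below the reserve mean. Sec63, the partner of Sec62 that recruits BiP to the channel, was 9.98 in proliferative, 9.94 in hypertrophic, 8.92 in reserve and 8.38 in perichondral means, and 2 of its 3 other probe sets had proliferative below perichondral means. The remaining Sec63 probe set, close in brightness, had equal perichondral and proliferative means of 9.20, its highest mean in reserve (10.68) and its lowest in hypertrophic arrays (7.94). Sec61b and Sec62 had their highest means in the perichondral zone, 10.53 and 13.09, but the Sec62 reserve mean was 13.08. The other Sec62 probe set was highest in reserve means, 10.87 against 10.41 in perichondral means.

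In the COPII coat, all 6 measured genes had higher reserve than hypertrophic means (median difference 1.25) and higher proliferative than hypertrophic means (median 1.17). Of all 14217 genes, 7456 and 7106 did. None passed the test. Sar1a, a GTPase that starts the coat, read 11.01 and 10.37 in perichondral, 10.66 and 10.83 in reserve, 10.71 and 9.96 in proliferative, and 8.61 and 9.39 in hypertrophic arrays. Both hypertrophic arrays lay below the 6 others, which overlapped among themselves. Reserve exceeded hypertrophic arrays by 1.74 (SE 0.60, 3.35-fold, adjusted p = 0.504), and by 1.64 on the second Sar1a probe set. That second probe set had its lowest mean in proliferative arrays, 8.68 against 8.88 in hypertrophic arrays, unlike the one used. The paralog Sar1b, known for the export of lipoprotein particles from gut cells, read 9.37 and 9.02, 9.80 and 10.44, 9.49 and 9.83, and 10.89 and 8.30. Sar1b did not share the gap between reserve and hypertrophic arrays: its hypertrophic arrays held the highest and the lowest of the 8 values.

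Sec24d, a cargo-binding subunit used for procollagen, lay in a narrow band in all zones but the hypertrophic one, with arrays between 9.82 and 10.50 in 3 zones and at 8.97 and 8.85 in hypertrophic arrays. Sec23b, the paralog of the unmeasured Sec23a, read 5.60 and 8.10 in perichondral, 8.92 and 9.60 in reserve, 9.39 and 8.15 in proliferative, and 4.85 and 7.51 in hypertrophic arrays. Both reserve arrays exceeded both hypertrophic and both perichondral ones. The reserve and hypertrophic means differed by 3.08 (SE 1.21, 8.48-fold, adjusted p = 0.550), and without the 42-day hypertrophic array the difference was 1.76.

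Sec31a, of the outer coat, was the one COPII gene highest in the proliferative zone. It read 8.37 and 8.23 in perichondral, 7.66 and 8.99 in reserve, 10.51 and 10.09 in proliferative, and 8.05 and 7.12 in hypertrophic arrays. Both proliferative arrays stood above the 6 others. The proliferative and hypertrophic means differed by 2.72 (SE 0.83, 6.58-fold, adjusted p = 0.864). A second, dimmer Sec31a probe set was also higher in proliferative than in hypertrophic means, by 1.04, but had its highest mean, 8.49, in the reserve zone. Sec13, its partner in the outer coat, ran from 8.92 in hypertrophic to 10.16 in reserve means.

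Cargo and retrieval receptors held the widest zone range of the group. Kdelr3, one of the receptors that return KDEL-tagged chaperones such as BiP from the Golgi, read 9.51 and 8.69 in perichondral, 10.31 and 9.26 in reserve, 5.18 and 8.56 in proliferative, and 5.09 and 5.45 in hypertrophic arrays. Both hypertrophic arrays were far below perichondral and reserve arrays, while 1 proliferative array read close to the hypertrophic ones and the other close to the perichondral ones. Reserve exceeded hypertrophic arrays by 4.51 (SE 1.19, 22.8-fold, 95% interval 2.00 to 7.03, adjusted p = 0.364, unadjusted p = 0.00151), and no array left out took this difference below 3.99. Kdelr2, its paralog, read 11.65 and 11.29, 11.19 and 11.19, 11.56 and 11.51, and 10.59 and 11.14. Kdelr2 thus spanned 0.67 across zone means where Kdelr3 spanned 4.51. The paralogs differed in brightness, however. Kdelr2 exceeded 9.83, the 0.95 quantile of 34 genes typical of other organs, in all 8 arrays, and Kdelr3 did so in 1.

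Tmed10, a p24 cargo receptor, read 10.10 and 7.92, 10.39 and 9.52, 9.61 and 8.13, and 10.28 and 7.26 in perichondral, reserve, proliferative and hypertrophic arrays. The ages differed more than the zones did. The reserve and hypertrophic means differed by 1.19 (SE 0.98, adjusted p = 0.788), and without the 46-day hypertrophic array the difference was -0.32. Tmed2, another p24 receptor, ran from 9.63 to 9.96. Lman1, the lectin receptor ERGIC-53, ran from 7.76 in perichondral to 8.74 in hypertrophic means, with 6.26 in its 46-day perichondral array.

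**Figure D4:**
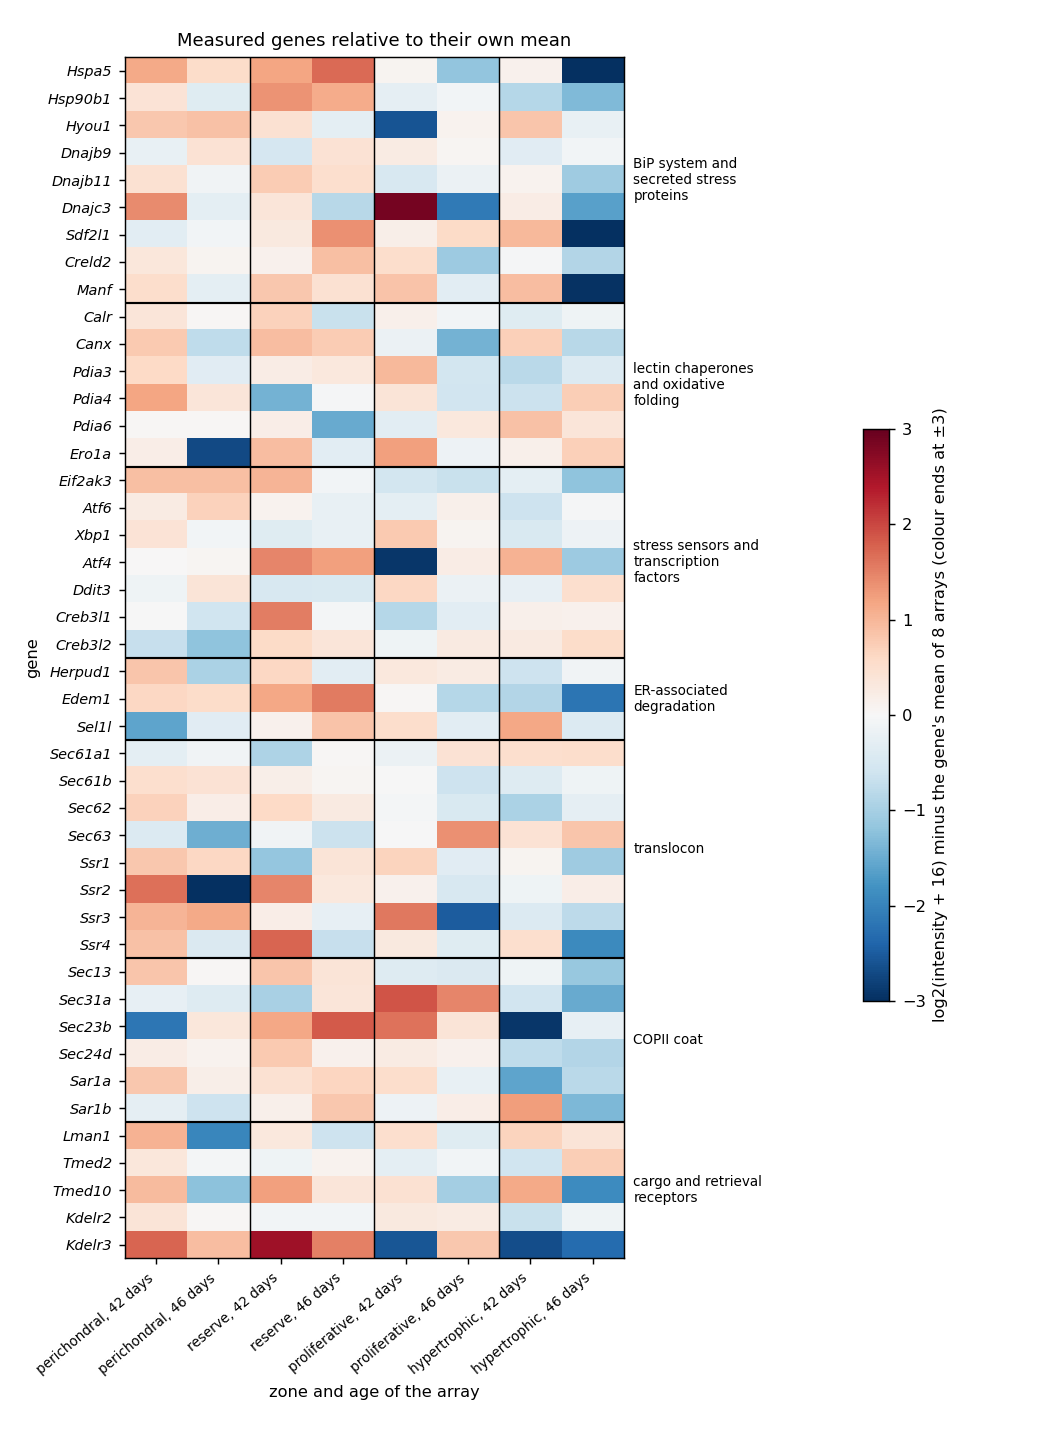
The 44 measured genes (rows, by role) in the 8 arrays (columns), coloured by log2(intensity + 16) minus the gene's own mean, with the colour scale ending at plus and minus 3. The 46-day hypertrophic column holds the lowest value of 13 genes, Hspa5, Sdf2l1 and Manf among them.

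Between the ages, 32 of 44 genes were lower at 46 than at 42 days, against 7604 of 14217 genes in all. The fit held zone as a covariate, and the median member difference was -0.36, against -0.06 over all genes. At an unadjusted p below 0.05 there were 7 members, Hspa5, Dnajc3, Manf, Canx, Ssr3, Ssr4 and Tmed10, all lower at 46 days (8.98% of all genes). The 46-day array was below the 42-day array in all 4 zones in 9 members, Dnajc3, Manf, Canx, Eif2ak3, Ssr4, Sec13, Sec24d, Lman1 and Tmed10 (9.28% of all genes, 12.2% of the genes brighter than the median member). It was above in all 4 zones in 1, Sec61a1 (7.32%), by 0.03 in the hypertrophic zone. The next Sec61a1 probe set was lower at 46 days in perichondral, reserve and proliferative arrays and higher in hypertrophic ones. Canx depended on the probe set: its 2 other probe sets were higher at 46 than at 42 days in all 4 zones, among them 9.38 and 10.68 in reserve and 8.83 and 11.03 in proliferative arrays on the brighter one. Genes in the age comparison were named after their values had been seen.

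Dnajc3, which encodes the BiP co-chaperone p58IPK, read 13.02 at 42 and 11.30 at 46 days in perichondral, 11.96 and 10.76 in reserve, 14.46 and 9.48 in proliferative, and 11.81 and 9.96 in hypertrophic arrays. Every 42-day array lay above every 46-day array. The difference was -2.44 (SE 0.48, 5.41-fold), and its adjusted p of 0.112 missed the threshold. On values as deposited it was -2.63 with an adjusted p of 0.0363, and with arrays centred on their medians -2.88 with 0.0105. Over all alternatives that p ran from 0.0105 to 0.446, and without either proliferative array the difference was -1.59.

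Tmed10, the p24 receptor, differed by -1.89 (SE 0.52, adjusted p = 0.296), with zone values from -0.88 to -3.01. Ssr4, a TRAP subunit, differed by -1.71 (SE 0.58, adjusted p = 0.457), Manf by -1.56 (SE 0.61, adjusted p = 0.517) and Canx, on the probe set used, by -1.13 (SE 0.37, adjusted p = 0.441). The Manf difference rested on the hypertrophic zone, at -3.92 against -0.36 to -1.15 in the others, and was -0.78 without either hypertrophic array. The Hspa5 difference of -1.26 (SE 0.53, adjusted p = 0.556) rested on the hypertrophic zone, at -3.70 against -1.28 to 0.52 in the others. It was -0.44 without either hypertrophic array. The Ssr3 difference of -1.19 (SE 0.51, adjusted p = 0.556) rested on the proliferative zone, at -4.08 against -0.45 to 0.12 in the others. It was -0.23 without either proliferative array. The 2 other Ssr3 probe sets were higher at 46 days in that zone, 10.33 against 9.56 and 6.97 against 5.33.

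**Figure D5:**
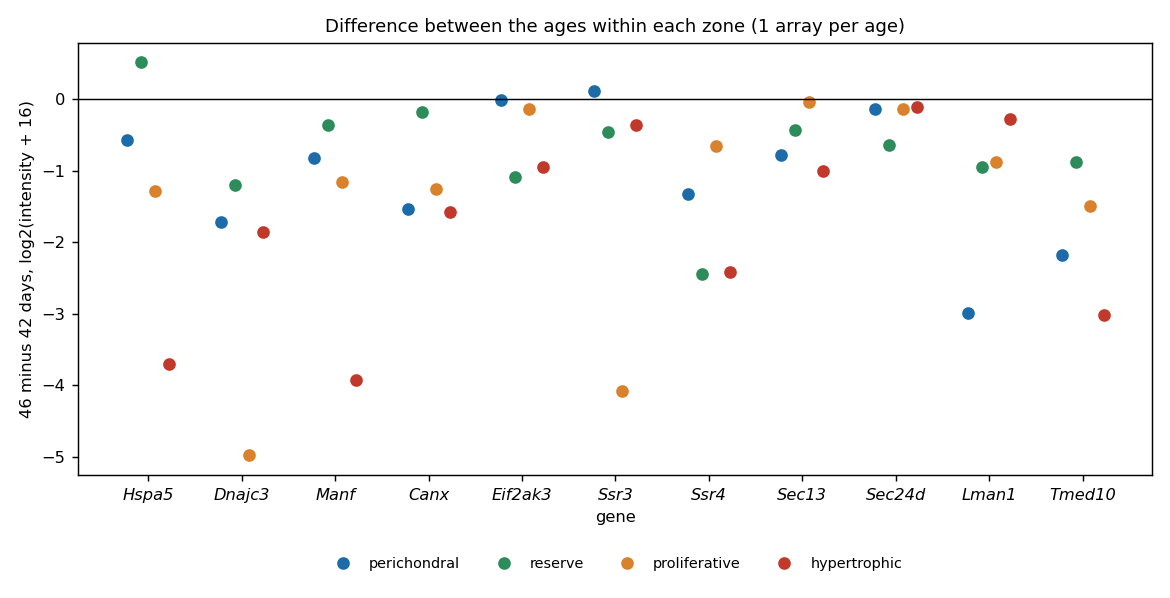
Difference between 46-day and 42-day arrays in each zone, on the log2(intensity + 16) scale, for the 11 genes lower at 46 days in all 4 zones or with an unadjusted p below 0.05. Each point is 1 array minus 1 array, and Dnajc3 lies between -1.20 and -4.98.

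Of 187 further genes of the same pathways, 181 were measured, and 143 of them were higher in reserve than in hypertrophic means (median difference 0.98), against 7456 of 14217 genes in all (median 0.07). The medians were 1.39 for 38 other folding enzymes, 1.18 for 32 genes of signal peptide handling, targeting and glycan transfer, and 1.08 for 41 other ER-to-Golgi genes. They were 0.92 for 16 genes of the COPI coat, which carries retrieved proteins back, 0.59 for 25 other degradation genes and 0.43 for 29 targets of the integrated stress response. Of the 181, 44 had an unadjusted p below 0.05 between these zones (9.06% of all genes), and 1 passed after adjustment (0.0422% of all genes). Between the ages, 129 of the 181 were lower at 46 days, against 7604 of 14217 genes in all. The median difference of the 181 was -0.44, and the COPI genes had a median of -0.90.

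That gene was Fkbp9, an ER prolyl isomerase. It read 11.65 and 10.11 in perichondral, 12.31 and 10.63 in reserve, 8.69 and 9.45 in proliferative, and 5.54 and 6.32 in hypertrophic arrays. Both hypertrophic arrays lay below the 6 others. Reserve exceeded hypertrophic arrays by 5.54 (SE 0.78, 46.5-fold, adjusted p = 0.0162), and perichondral exceeded hypertrophic arrays by 4.95 (SE 0.78, adjusted p = 0.0326). With single arrays left out, the adjusted p ran from 0.0187 to 0.999 for the former and from 0.0523 to 0.999 for the latter. The former was lost without each perichondral, reserve or proliferative array and the latter without each of the 8 arrays. With median-centred arrays these p-values were 0.0542 and 0.125, and over the probe sets brighter than the median 0.0856 and 0.117. Over all alternatives the ranges were 0.00257 to 0.999 and 0.00769 to 0.999.

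Serpinh1, the collagen chaperone Hsp47, had hypertrophic values of 4.52 and 4.76, below all other arrays, whose lowest was 6.99, and it differed by 5.80 between reserve and hypertrophic means (SE 1.15, adjusted p = 0.215). Tmed7, a p24 relative of Tmed10, had perichondral and reserve values between 12.46 and 12.71 and hypertrophic values of 7.78 and 10.15. Sec22b, a SNARE of ER-to-Golgi vesicles, was lowest in proliferative arrays, at 6.12 and 4.50, against 12.56 and 10.40 in reserve arrays (difference 6.17, SE 1.03, adjusted p = 0.0563). Srp9, of the signal recognition particle, and Spcs3, of the signal peptidase, were also lowest in proliferative means, at 5.76 and 6.49.

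Among the degradation genes, Erlec1 and Selenos were lowest in hypertrophic means, at 8.92 and 6.42, and so were Copa and Gbf1 of the COPI list, at 6.93 and 7.74. The hypertrophic arrays of Copa read 9.27 and 4.58, so the 46-day array set its mean. Of the stress response targets, Aars1, an aminoacyl-tRNA synthetase, was lowest in hypertrophic means (6.78). Ddit4, an inhibitor of mTORC1 signalling, went the other way with its highest mean in the hypertrophic zone (9.81) and its lowest in the proliferative zone (6.63).

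Markers of cell types and of RNA quality also differed between these arrays, and their part in the results was not tested. All 7 measured chondrocyte markers of 9 listed were higher in reserve than in hypertrophic means (median 1.31), and their summed intensity was 287071 to 358792 in perichondral, 275293 to 366988 in reserve, 237025 to 324932 in proliferative and 88640 to 197916 in hypertrophic arrays. Col10a1, which defines hypertrophic chondrocytes, read 16.93 and 15.26 in hypertrophic arrays and at most 13.78 elsewhere. Of the 6 markers of that cell type, Col10a1, Ihh and Alpl had their highest mean in the hypertrophic zone, Mmp13 and Spp1 in reserve and Panx3 in the proliferative zone, and Mmp13 read 14.75 and 14.73 in reserve against 14.73 and 14.09 in hypertrophic arrays. The 6 measured leukocyte and marrow markers of 8 listed summed to 31591 and 37135 in reserve, 18592 and 1257 in hypertrophic, and at most 3244 in perichondral and proliferative arrays. The 5 measured osteoblast markers of 6 listed summed to 85258 and 89200 in reserve, 134453 and 9335 in hypertrophic, 49911 and 21068 in perichondral, and 2958 and 1705 in proliferative arrays. Of the 5 measured B and plasma cell markers, a cell type rich in ER, 4 stayed in every array at or below 9.83, the 0.95 quantile of 34 genes typical of other organs. The fifth, Jchain, which joins antibody chains, read 10.98 in the 46-day reserve and 11.35 in the 42-day hypertrophic array and had its lowest mean in proliferative arrays (5.35), and Pou2af1, among the 4, ran from 5.30 in perichondral to 9.25 in reserve means. The 5 measured erythroid markers summed to 9176 and 38176 in reserve, 10000 and 1776 in hypertrophic and at most 1971 in the other arrays. The 5 measured osteoclast markers summed to 17072 and 8388 in reserve and 5043 and 6765 in hypertrophic arrays. The 46-day hypertrophic array, the lowest for 13 members, also had the lowest chondrocyte sum. The ratio of 3′ to 5′ Gapdh signal was 8.15 and 3.96 in reserve, 7.10 and 5.39 in proliferative, 4.47 and 3.78 in perichondral, and 4.30 and 3.63 in hypertrophic arrays. The same ratio for actin was 4.65 and 2.32, 1.85 and 4.56, 1.64 and 0.557, and 1.71 and 4.59 in that order. The 46-day hypertrophic array thus had the lowest Gapdh ratio and the second highest actin ratio. In every zone the 42-day array had the higher Gapdh ratio, while the actin ratios of the ages went both ways.

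Probe sets limit single genes. Of the 44 genes, 35 had a mean above the median of all probe sets, 8.25. The other-organ level of 9.83 was exceeded in all arrays by 8 genes and in no array by 12. The 12 were Hyou1, Sdf2l1, Pdia4, Ero1a, Eif2ak3, Ddit3, Creb3l2, Herpud1, Sel1l, Ssr2, Sec23b and Lman1. All levels given above for these genes lie at or below that level. In 14 genes there was more than 1 probe set, and 12 of the 20 other probe sets had the same sign between the zones highest and lowest in the one used. Of these 20, 2 had means above the other-organ level, for Canx and Sec62, and both had the same sign, with differences of 0.10 and 0.49 against 1.65 and 1.05 in the probe sets used.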

How the data were processed

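Biotin-labelled RNA was hybridised to 8 Affymetrix arrays, 2 per zone. The authors deposited linear intensity values for 31099 probe sets, and MAS5, GCOS and RMA appear in the submitters' processing notes with no role given. Precision is limited by having 2 arrays per zone.

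After removal of 57 control probe sets, the other 31042 were taken as log2(intensity + 16) and quantile normalized between arrays (limma 3.58.1, R 4.3.3). One mean per zone was fitted with eBayes with trend (residual degrees of freedom 4, prior 12.58) for the 6 pairs of zones and for any difference over 4 zones, and p-values were adjusted over the whole set of probe sets by Benjamini-Hochberg. The age fit held zone as a covariate (residual degrees of freedom 3, prior 15.8). The fit was also run on simulated data with normal noise and no age effect or single outlying arrays. That run does not show how the fit behaves on the arrays used here. Of the probe sets, 20826 had 1 gene symbol, 436 several and 9780 none, and genes used the single-symbol probe set of highest mean.

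The values in each array are given for any gene past the threshold, for the 2 genes of widest zone range per role among those above the median of all probe sets in a zone, and for paralogs. From each further list the 2 of widest range and any gene past the threshold were named. Other genes named, the other-organ list of 34 measured genes and the age genes were chosen after values were seen. The members and lists were chosen with earlier results of these data known.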

Additional observations from a re-analysis of the deposited data

How the results depend on the processing

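Alternatives were values as deposited, median-centred arrays, pseudocounts of 1 and 64, only probe sets above the median, age as a replicate block (for age, no replicate block), the mean over a gene's probe sets, and each array left out in turn. A zone left with 1 array was assumed to vary like the others. Age was not taken as a pairing in the main zone fits. Deviations at 46 against 42 days correlated weakly between zones, with r of 0.0225 to 0.0806 across probe sets. Any age difference that the zones share therefore stays in the spread of the main zone fits. Members called stayed at 0 in every zone test with age as a replicate block, while probe sets called went from 9 to 55 for perichondral minus hypertrophic, from 7 to 60 for reserve minus proliferative, from 7 to 38 for reserve minus hypertrophic, from 4 to 11 for proliferative minus hypertrophic, from 0 to 3 for perichondral minus reserve, from 0 to 13 for perichondral minus proliferative and from 12 to 96 over the 4 zones. With arrays left out, the only members called between zones were Hspa5 and Edem1, both without the 42-day hypertrophic array. The hypertrophic zone then rested on 1 array, and the share of all genes called there is not given. Those calls are therefore not read as a result. Between ages 1 member, Dnajc3, was called on values as deposited and 1 with median-centred arrays. The share of all genes called in these 2 settings is not given either. Medians of member differences ran, with arrays left out, from -0.59 to 0.18 for perichondral minus reserve, -0.08 to 0.58 for perichondral minus proliferative, 0.08 to 0.77 for reserve minus proliferative and 0.34 to 0.88 for reserve minus hypertrophic. The Ssr2 difference, perichondral minus reserve, ran from -4.04 to 0.76 and that of Tmed10, reserve minus hypertrophic, from -0.32 to 2.69. Members lowest in the hypertrophic zone numbered 17 to 26 with arrays left out (24.5% to 32.1% of all genes). Members highest in the reserve zone numbered 16 to 23 (24.4% to 35.1% of all genes). These alternatives were chosen after seeing the data, as were those for Fkbp9. The causes were not tested.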
